A study of Mus musculus with 5 samples.

Results

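Genes that encode the enzymes of cholesterol and fatty acid synthesis, with their regulators, were followed in activated mouse CD8 T cells. A list of 34 genes was used, 18 of the mevalonate and sterol steps, 13 of fatty acid synthesis, desaturation, elongation and activation, and 3 regulators. Of these, 27 had a singly named probe set on the array (16, 9 and 2), out of 8251 genes named there, and the brightest probe set on average over the 5 arrays stood for each gene. The other 7 (Acat2, Pmvk, Srebf2, Acaca, Fads2, Acsl1 and Acsl3) had none and were not analysed here. A filter on low signal left 26 genes, all but Insig1. The cells were CD8 T lymphocytes of C57BL/6 mice, 6 to 8 weeks old, that carried the OT-1 T cell receptor transgene. CD44-low cells from lymph nodes were stimulated in culture on latex microspheres coated with the antigen peptide in its H-2Kb complex and with the costimulatory ligand B7-1, and every culture held human IL-2. Cells were taken at 48 h from cultures without (2 arrays) or with murine IL-21 (2 arrays), and at 72 h from 1 culture that had received IL-21. The labels call each array a biological replicate but do not say whether mice or cultures were separate, so p-values measure only the spread between these samples. Cells kept for 72 h in the absence of IL-21 were not analysed here, so a change with time cannot be told apart from a longer action of IL-21. In such bulk samples, fewer cells of a type and less RNA per cell cannot be told apart either.

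Cholesterol is built from acetyl-CoA through mevalonate, isoprenoid diphosphates, squalene and lanosterol, and fatty acids are built from the same precursor by ATP citrate lyase, acetyl-CoA carboxylase and fatty acid synthase before they are desaturated, elongated and joined to coenzyme A. Transcription factors of the SREBP family, products of Srebf1 and Srebf2, drive genes of both branches, and INSIG proteins hold them back when sterols are plentiful. Dividing T cells need both kinds of lipid for new membrane, and isoprenoids for the anchoring of small GTPases.

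The 250 bases before an annotated transcription start are shown for 7 genes. These are the 4 with an entry that passed the test at 72 h (Mvd, Msmo1, Nsdhl and Elovl5), Hmgcs1, and Idi1 and Fasn, which lay lower at 72 h. Hmgcs1 was the only gene searched whose window held the string TCACNCCAC. The sequences are those of RefSeq on GRCm38.p6, each on its gene's strand. That of Fasn precedes a start that lies inside the annotated gene (chr11:120805958-120825166), not the gene's outer end. Capitals mark CCAAT boxes, the sequence bound by NF-Y, on either strand, and in Hmgcs1 also TCACNCCAC, a core of the sites that SREBPs bind.
Hmgcs1, chr13:119690101-119690350, plus strand: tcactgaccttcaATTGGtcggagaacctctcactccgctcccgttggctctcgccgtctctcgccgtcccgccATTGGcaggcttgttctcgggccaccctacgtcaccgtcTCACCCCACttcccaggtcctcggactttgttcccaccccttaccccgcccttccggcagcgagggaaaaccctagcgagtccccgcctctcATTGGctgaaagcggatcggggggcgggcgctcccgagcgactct
Mvd, chr8:122443423-122443672, minus strand: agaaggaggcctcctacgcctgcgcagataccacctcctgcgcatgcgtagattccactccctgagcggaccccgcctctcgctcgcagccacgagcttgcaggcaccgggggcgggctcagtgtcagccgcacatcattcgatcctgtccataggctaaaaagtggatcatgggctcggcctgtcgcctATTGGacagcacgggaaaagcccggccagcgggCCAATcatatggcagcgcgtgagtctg
Msmo1, chr8:64733579-64733828, minus strand: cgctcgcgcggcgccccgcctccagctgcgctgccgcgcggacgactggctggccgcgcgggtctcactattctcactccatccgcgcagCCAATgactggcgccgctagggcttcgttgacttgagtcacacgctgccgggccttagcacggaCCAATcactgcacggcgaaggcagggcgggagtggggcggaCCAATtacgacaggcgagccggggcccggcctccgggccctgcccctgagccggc
Nsdhl, chrX:72918271-72918520, plus strand: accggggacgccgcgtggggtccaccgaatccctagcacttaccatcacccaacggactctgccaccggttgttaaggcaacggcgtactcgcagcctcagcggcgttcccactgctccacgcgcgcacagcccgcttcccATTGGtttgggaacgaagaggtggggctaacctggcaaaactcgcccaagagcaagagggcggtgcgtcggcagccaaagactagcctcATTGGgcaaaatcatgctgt
Elovl5, chr9:77917115-77917364, plus strand: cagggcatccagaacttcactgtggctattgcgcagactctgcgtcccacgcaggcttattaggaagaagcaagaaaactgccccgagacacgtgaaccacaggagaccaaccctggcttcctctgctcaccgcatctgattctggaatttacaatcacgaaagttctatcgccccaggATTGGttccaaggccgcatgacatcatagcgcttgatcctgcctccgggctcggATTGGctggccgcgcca
Idi1, chr13:8885356-8885605, plus strand: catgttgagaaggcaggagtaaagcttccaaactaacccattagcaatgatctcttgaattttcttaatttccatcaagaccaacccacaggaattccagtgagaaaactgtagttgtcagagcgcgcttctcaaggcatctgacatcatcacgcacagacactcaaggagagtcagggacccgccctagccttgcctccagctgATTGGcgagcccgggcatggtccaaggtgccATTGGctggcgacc
Fasn, chr11:120824548-120824797, minus strand: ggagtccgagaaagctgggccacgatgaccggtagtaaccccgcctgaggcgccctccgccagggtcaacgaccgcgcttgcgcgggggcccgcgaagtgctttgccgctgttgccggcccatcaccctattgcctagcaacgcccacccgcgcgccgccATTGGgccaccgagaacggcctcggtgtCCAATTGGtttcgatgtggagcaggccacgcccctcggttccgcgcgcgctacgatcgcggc
Of the 26 genes, 20 had a sequence to search. Fdps, Fdft1, Sqle, Scd1, Scd2 and Fads1 had none, and their promoters were not searched. CCAAT was searched on both strands and was found in 13 of 15 windows of 13 sterol genes, in 3 of 7 windows of 6 fatty acid genes, and in 35.4% of the 21263 windows of protein-coding genes. At least 2 copies stood in 10 of the 15 sterol windows, in 2 of the 7 fatty acid windows and in 11.4% of all windows. GGGCGG, the GC box bound by SP1, was in 13 of the 15 sterol windows, 4 of the 7 fatty acid windows and 42.6% of all. TCACNCCAC was in 1 sterol window, that of Hmgcs1, no fatty acid window and 1.01% of all windows. Other forms of the SREBP site were not searched, so a window without this string may still hold one. The capitals of Fasn include a pair of overlapping boxes, 1 on each strand. CCAAT boxes stood before genes that were higher at 72 h, such as Msmo1 with 3, and before genes that were lower there, such as Fasn with 3 and Idi1 with 2. A match describes these letters only and is not evidence of binding.

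Overall signal differed between the arrays before scaling. Trimmed means were 65.8 and 75.9 without IL-21, 106 and 106 with IL-21 at 48 h, and 66.4 at 72 h. Hybridisation controls had mean log2 signals of 8.25 and 8.10 without IL-21, 9.08 and 8.80 with it at 48 h, and 8.24 at 72 h. The 48 h arrays with IL-21 were thus the brightest, and IL-21 and array brightness cannot be told apart. Values below are therefore quantile-normalised signals, and a gene's direction is read against that of most other probe sets. Tests were made with limma over 7453 probe sets with Benjamini-Hochberg adjustment, and a gene was called at an adjusted p under 0.05. Of 8 CD8 T cell markers on the array, all passed the filter. The summed signal of these lay between 5199 and 5741 on the 48 h arrays and at 8204 at 72 h, where Cd3g, Cd3d and Thy1 were called higher. Cd3e (0.53) and Cd8b1 (0.13) were higher and not called, and the other 3, Cd8a (-0.51), Cd247 (-0.33) and Cd2 (-0.18), were lower and not called. Summed B cell markers (8 genes) lay between 513 and 784 at 48 h and at 1255 at 72 h, of which Ighm gave between 301 and 571 at 48 h and 888 at 72 h. Of these genes Cd37 was called higher (1.64, limma adjusted p = 0.0176), and Cd22 and Blnk lay below the filter. Ighm (0.88), Cd79b (0.75) and Pax5 (0.09) were higher and not called. Cd79a (-0.02) and Ms4a1 (-0.22) were lower and not called. Summed myeloid and dendritic markers (12 genes) lay between 272 and 339 at 48 h and at 411 at 72 h. Among these H2-Ab1 was called higher (1.24, limma adjusted p = 0.0258), Cd68 (1.21) and Itgax (1.31) were not called, and Lyz2 lay between 0.28 and 1.47 on all 5 arrays. The other 5 of the 8 tested were lower at 72 h and not called, namely Csf1r (-0.80), H2-Eb1 (-0.78), Cd14 (-0.61), Xcr1 (-0.49) and Ccl22 (-0.10). Summed CD4 and regulatory T cell markers (4 genes) lay between 33.9 and 56.8 at 48 h and at 71.7 at 72 h, with a difference of 1.42 for Cd4 that was not called. Erythroid and stromal ones (5 genes) summed to between 224 and 304 at 48 h and to 332 at 72 h. Of the 5, 4 were higher, Pecam1 the most (1.55), and 1, Hba-a1, was lower (-1.315), with none called. Of 6 adipocyte and hepatocyte markers, Adipoq, Alb, Apoa1, Ttr and Fabp4 were below the filter, and Lep was past it. The part of other cells in the results below was not tested.

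The larger differences lay between 72 h and 48 h with IL-21. Sterol synthesis genes mostly had higher values at 72 h. Fasn and Elovl6, which make and extend palmitate, had lower values that were not called, as did Acly and Acsl4. In all, 6 of 26 genes were called, 6 higher and 0 lower, where 11.0% of all probe sets were called, 3.96% as higher and 7.08% as lower. The 6 were Mvd, Fdps, Msmo1 and Nsdhl of the sterol branch and Scd1 and Elovl5 of the fatty acid branch. Of the 16 sterol genes, 12 lay above and 4 below 0, with a median log2 difference of 0.45 that was -0.17 in the deposited values without scaling. Of the 9 fatty acid genes, 4 lay above and 5 below 0, with a median of -0.12 that was 0.03 without the second 48 h IL-21 array and 0.01 with the replicate block. Over all probe sets 49.3% were higher, with a median of -0.01.

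A single array stands for 72 h, and limma gave it the spread seen between the arrays at 48 h. Without the first or the second IL-21-free array, which leaves 1 array in that group, most of the 6 calls were lost. The log2 difference of Scd1 lay between 1.056 and 1.165 with any 48 h array left out. Without the first or the second 48 h IL-21 array 0 of all 7453 probe sets were called in limma, while 1702 and 1753 of them, and 12 and 14 of the 26 genes, had an unadjusted p under 0.05. The 6 differences kept their sign in each of these fits. In the deposited values without scaling, where the median of all probe sets fell by 0.58, the fatty acid median was -0.78. After subtraction of the median over all probe sets, the sterol median lay between 0.38 and 0.62 in the 14 alternatives, and the fatty acid median between -0.27 and 0.08.

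**Figure D1:**
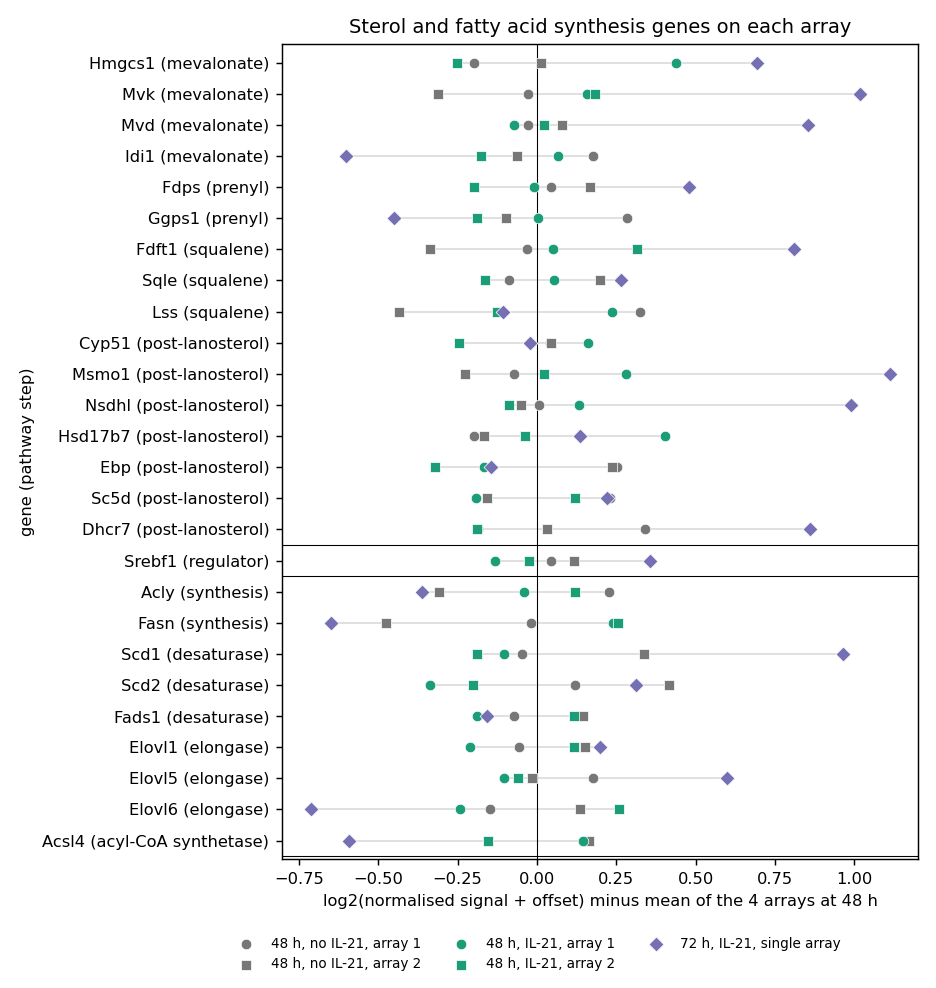
Value of each of the 26 genes on each of the 5 arrays, as log2(normalised signal + offset) minus the mean of the 4 arrays at 48 h, with the pathway step in brackets. The 72 h array (diamonds) lies to the right of all other arrays for 9 of 16 sterol genes and 3 of 9 fatty acid genes, and to the left of all others for 2 sterol and 4 fatty acid genes.

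Among the mevalonate steps, Mvd was called. Mvd encodes mevalonate diphosphate decarboxylase, which makes isopentenyl diphosphate. Its normalised signal was 108 and 116 without IL-21 at 48 h, 104 and 112 with IL-21 at 48 h, and 200.2 at 72 h. The 72 h value lay above all 4 others, and the 48 h groups overlapped. It rose 1.84-fold at 72 h (log2 difference 0.88, SE 0.21, limma adjusted p = 0.0486).

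Mvk, the mevalonate kinase gene, had signals of 82.9 and 67.8 without IL-21, 94.5 and 96.2 with it at 48 h, and 173 at 72 h. Again the highest value was that at 72 h, but the difference (0.85, SE 0.23) missed the threshold in limma (adjusted p = 0.0729). Hmgcs1, the cytosolic HMG-CoA synthase gene, had 239 and 277 without IL-21, 372 and 230.2 with it, and 445 at 72 h. The spread between the IL-21 arrays at 48 h was wide, and its difference of 0.60 (SE 0.30) was not called.

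Idi1 went the other way. It encodes the isomerase that interconverts isopentenyl and dimethylallyl diphosphate, the step just after Mvd. Its signals were 897 and 759 without IL-21, 830.4 and 702 with it at 48 h, and 522 at 72 h. The lowest of the 5 was that at 72 h, with a log2 difference of -0.55 (SE 0.18) that was not called (adjusted p = 0.115 in limma).

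At the prenyl diphosphate branch point, Fdps was called and Ggps1 was not. Fdps encodes farnesyl diphosphate synthase, and its signals were 1544 and 1682 without IL-21, 1488 and 1306 with it at 48 h, and 2092 at 72 h. The 72 h value lay above the rest, and the 48 h values with IL-21 lay below those without it. Fdps rose 1.5-fold at 72 h (0.59, SE 0.14, limma adjusted p = 0.0481). Of its 3 other probe sets, the bright one agreed in sign (0.85), a dim one below the filter gave 1.51 and a dim one -0.08. Ggps1, whose product makes geranylgeranyl diphosphate, had 64.9 and 49.5 without IL-21, 53.1 and 46.3 with it, and 38.4 at 72 h. It was lowest at 72 h (-0.36, SE 0.29), as was its other probe set (-0.17).

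Of the squalene steps none was called. Fdft1, the squalene synthase gene, had 253 and 204 without IL-21, 268 and 322 with it at 48 h, and 454 at 72 h (0.63, SE 0.22, adjusted p = 0.131 in limma). Its 72 h value was the highest of the 5. Sqle, the squalene epoxidase gene, differed by 0.32 (SE 0.20), and Lss, the lanosterol synthase gene, by -0.16 (SE 0.35).

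After lanosterol, 2 of 7 genes were called, Msmo1 and Nsdhl, both of the demethylation at carbon 4. Msmo1 encodes the sterol C4-methyl oxidase, and its signals were 105 and 94.4 without IL-21, 135 and 112 with it at 48 h, and 241 at 72 h. Both IL-21 arrays lay above both arrays without it, and the 72 h array above all. The 72 h difference was 1.95-fold (0.96, SE 0.23, limma adjusted p = 0.0482).

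Nsdhl encodes the C4-decarboxylating dehydrogenase that acts after Msmo1. Its signals were 163 and 157 without IL-21, 178 and 153 with it at 48 h, and 324 at 72 h. The 48 h groups overlapped and the 72 h array lay above both, 1.96-fold over the IL-21 arrays (0.97, SE 0.20, limma adjusted p = 0.0348). Both other probe sets were higher at 72 h too, by 1.29 and 0.60. Hsd17b7, the ketoreductase gene of the same demethylation, did not follow, with dim signals of 18.9 and 19.4 without IL-21, 29.5 and 21.4 with it at 48 h, and 24.2 at 72 h (-0.05, SE 0.38).

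Dhcr7, whose product reduces 7-dehydrocholesterol in the last step, had 67.7 and 54.4 without IL-21, 46.6 and 46.5 with it at 48 h, and 97.9 at 72 h. It had the largest difference of the sterol genes, 2.07-fold (1.05, SE 0.26), and just missed the threshold (adjusted p = 0.0556 in limma). The other late genes were near 0, namely Cyp51, the lanosterol demethylase gene (0.02), Ebp, the sterol isomerase gene (0.10), and Sc5d, the sterol desaturase gene (0.26). In all, the 72 h value lay above all 48 h arrays for 9 sterol genes, namely Hmgcs1, Mvk, Mvd, Fdps, Fdft1, Sqle, Msmo1, Nsdhl and Dhcr7, and below them for Idi1 and Ggps1, of the mevalonate and prenyl steps.

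**Figure D2:**
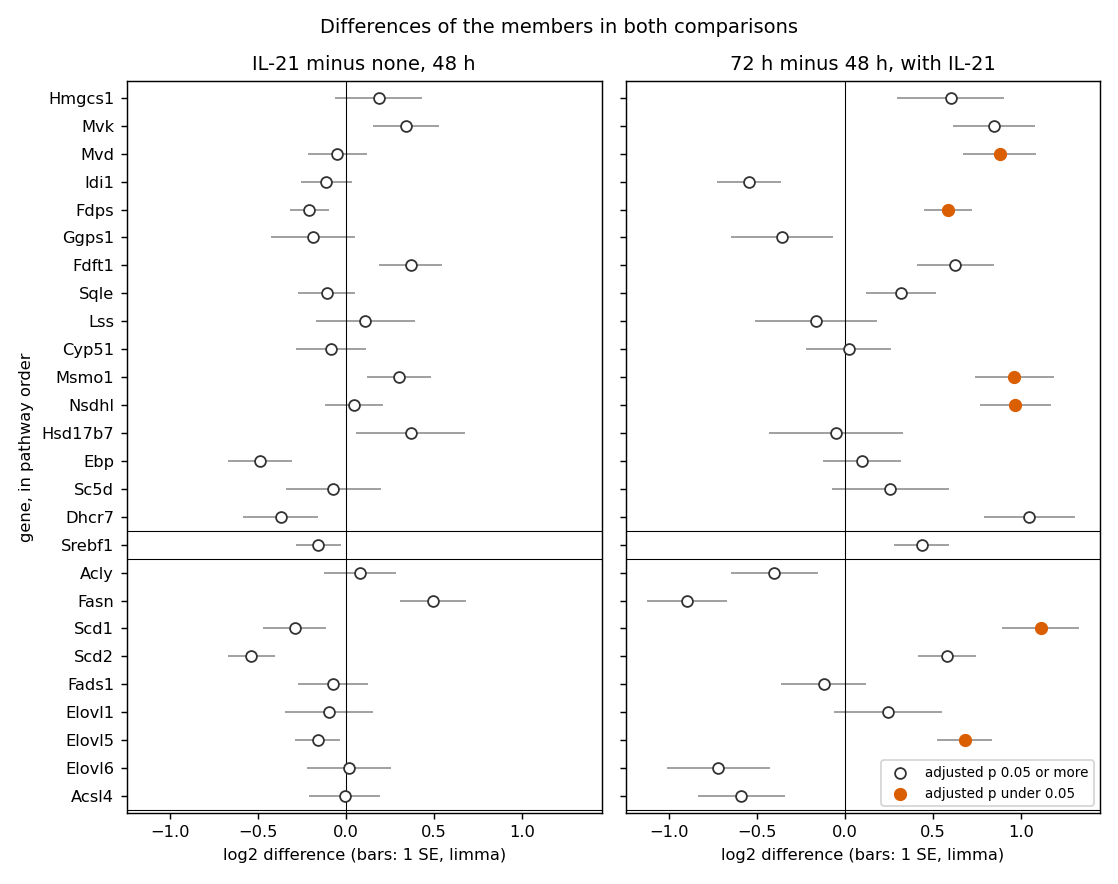
Log2 differences of the 26 genes with their standard errors (bars, limma), IL-21 minus none at 48 h on the left and 72 h minus 48 h with IL-21 on the right; filled points had an adjusted p under 0.05. No point is filled at 48 h, and 6 are filled at 72 h, all to the right of 0.

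Of the regulators, Srebf1 was measured above the filter. Its signals were 441 and 464 without IL-21, 391 and 421 with it at 48 h, and 549 at 72 h. The highest was the 72 h value, and the 48 h arrays with IL-21 were the lowest, but neither difference was called (0.44, SE 0.16, adjusted p = 0.141 in limma at 72 h). Insig1 lay between 2.75 and 6.62 on all arrays, too dim to be tested.

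Of the fatty acid genes, Fasn had the lowest difference at 72 h. Fasn encodes fatty acid synthase, and its signals were 374 and 272 without IL-21, 446 and 451 with it at 48 h, and 240.3 at 72 h. The 2 IL-21 arrays at 48 h were the highest and the 72 h array the lowest of the 5. The 72 h difference was -0.90 (SE 0.23, adjusted p = 0.0584 in limma), 1.86-fold lower, and missed the threshold. With arrays centred on their medians in place of quantile normalisation it was -1.21 and passed (adjusted p = 0.0461 in limma). In that fit 0 of the 6 called genes passed, beside 8.71% of all probe sets.

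Acly, the ATP citrate lyase gene that supplies cytosolic acetyl-CoA to both branches, had 526 and 363 without IL-21, 437 and 488 with it, and 349 at 72 h. The lowest value was again that at 72 h, with the second IL-21-free array close to it (-0.40, SE 0.25, not called). Elovl6, which extends palmitate, had 100.2 and 122 without IL-21, 93.7 and 134 with it at 48 h, and 67.3 at 72 h. Its 72 h value was the lowest (-0.72, SE 0.29, adjusted p = 0.180 in limma), and its other probe set gave -0.24. Acsl4, an acyl-CoA synthetase with a preference for arachidonate, had 151 and 189 without IL-21, 187 and 151 with it, and 111 at 72 h (-0.59, SE 0.24, not called), and its other probe set gave -0.55. All 4 of these genes, and no other fatty acid gene, were lower at 72 h than on every 48 h array, as 33.8% of all probe sets were.

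Of the delta-9 desaturase genes, Scd1 was called higher. Scd1 makes oleate from stearate, and its signals were 236 and 309 without IL-21, 227 and 214 with it at 48 h, and 478 at 72 h. At 72 h it stood above all others, and the IL-21 arrays at 48 h were the lowest. The 72 h difference was 2.16-fold (1.11, SE 0.22, limma adjusted p = 0.0305), the largest of the 26 genes. Its other probe sets gave 1.33 and 0.69.

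Scd2, the second desaturase of this kind, had 1394 and 1712 without IL-21, 1015 and 1114 with it at 48 h, and 1590 at 72 h. Its 72 h value lay between the 48 h arrays without IL-21 and above both with it (0.58, SE 0.16, adjusted p = 0.0782 in limma). The other Scd2 probe set, from a family of related sequences by its suffix, gave -0.26, so the direction for this gene is uncertain. The probe sets that stood for Ggps1 and Sc5d, and the bright other one of Fdps, carry the same suffix and the same limit. Fads1, the delta-5 desaturase gene, differed by -0.12 (SE 0.24).

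Elovl5, which elongates polyunsaturated fatty acids, had 623 and 546 without IL-21, 513 and 529 with it at 48 h, and 837 at 72 h. It was called at 72 h (1.60-fold, 0.68, SE 0.16, limma adjusted p = 0.0467), with the 72 h array above all others. In the deposited values without scaling its difference was -0.01. Elovl1, which elongates very long chains, differed by 0.25 (SE 0.31). Values at 72 h lay above all 4 arrays at 48 h for 9 of 16 sterol genes and 3 of 9 fatty acid genes, against 30.4% of all probe sets.

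The list medians were also read array by array. Relative to the mean of the 48 h arrays, the sterol median was 0.02 and -0.06 without IL-21, 0.06 and -0.14 with it at 48 h, and 0.37 at 72 h. At 72 h it thus exceeded the highest 48 h array by more than the 48 h arrays differed from each other. The fatty acid median was -0.05 and 0.14 without IL-21, -0.10 and 0.12 with it at 48 h, and -0.16 at 72 h. For fatty acid genes the 72 h array was the lowest, but by less than the spread between arrays of 1 group.

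**Figure D3:**
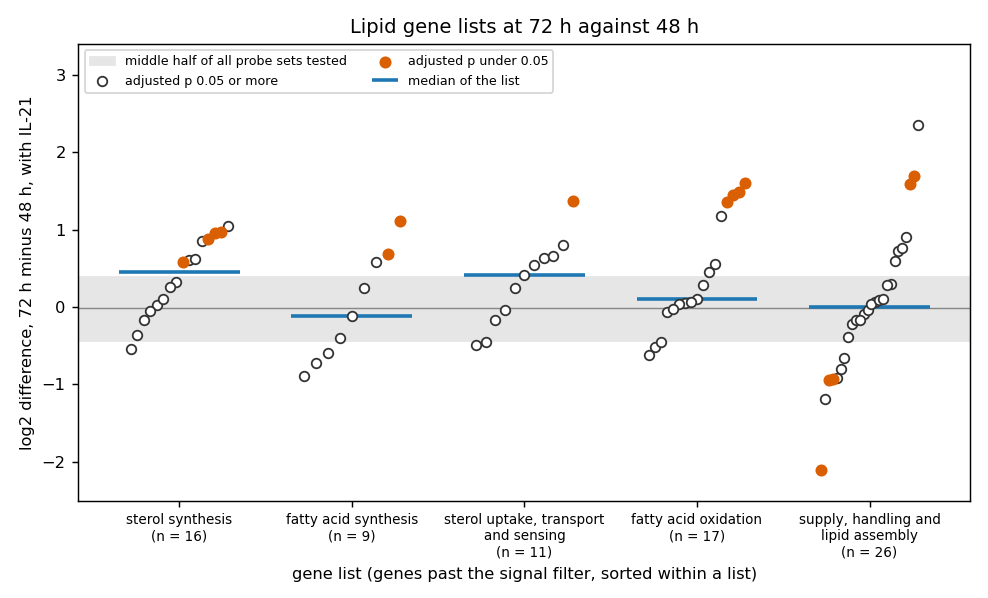
Log2 differences, 72 h minus 48 h with IL-21, of the genes past the signal filter in 5 lipid gene lists (points, sorted within a list; filled, adjusted p under 0.05), with each list's median (line) and the interquartile range of all probe sets tested (grey band). The band shows the spread of single probe sets and is no measure for a list's median. The sterol synthesis median is 0.45 (-0.17 without scaling), the fatty acid synthesis median is -0.12 (0.03 without the second 48 h IL-21 array), and the 4 filled oxidation genes are all above 1.

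Neighbouring lipid pathways were read from 3 further lists. Of 17 tested genes of fatty acid oxidation, 4 were called higher and 0 lower at 72 h, where 3.96% and 7.08% of all probe sets were, and 12 were higher by sign, with a median of 0.10. Acadl, the long-chain acyl-CoA dehydrogenase gene, had 48.2 and 47.9 without IL-21, 54.0 and 46.1 with it at 48 h, and 143 at 72 h (1.49, limma adjusted p = 0.0211). Cpt1a, which admits long-chain fatty acids to mitochondria, had 98.5 and 129 without IL-21, 91.0 and 109 with it, and 274 at 72 h (1.45, limma adjusted p = 0.0245). In both the 72 h array was the highest and the 48 h groups overlapped. Hadh, a hydroxyacyl-CoA dehydrogenase gene, rose by 1.36 (limma adjusted p = 0.0242). Etfdh, which passes electrons from these dehydrogenases to ubiquinone and was named after its value was seen, rose by 1.60 (limma adjusted p = 0.0443). Etfb, an electron transfer flavoprotein subunit, differed by -0.62 and was not called.

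Of 11 tested genes of sterol uptake, transport and sensing, 1 was called at 72 h, near the 11.0% of all probe sets, with a median of 0.41 over 7 values above and 4 below 0. This was Npc2, which carries cholesterol out of lysosomes, with 435 and 622 without IL-21, 427 and 586 with it at 48 h, and 1291 at 72 h (1.37, limma adjusted p = 0.0343). Its partner Npc1 (0.80), and Lbr, a sterol reductase of the nuclear envelope (0.64), were not called. Scarb1, a lipoprotein receptor gene, had -0.49.

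Of 26 tested genes of lipid supply and assembly, the calls at 72 h were 2 higher and 3 lower, beside 3.96% and 7.08% of all probe sets, and the median was -0.00. Acss1, a mitochondrial acetyl-CoA synthetase gene, had 59.7 and 49.9 without IL-21, 68.2 and 56.3 with it at 48 h, and 203 at 72 h (1.69, limma adjusted p = 0.0180). Lpin1, a phosphatidate phosphatase gene, rose by 1.59 (limma adjusted p = 0.0348). Pgd, an enzyme of the pentose phosphate pathway that yields NADPH, fell by 0.92 on the log2 scale (limma adjusted p = 0.0418). Agpat3, an acyltransferase gene, fell by 0.94 (limma adjusted p = 0.0371). Lipe, the hormone-sensitive lipase gene, fell by 2.11 to a signal of 4.30 (limma adjusted p = 0.0309). Lipe was dim at 48 h too, with 19.8 and 24.7 without IL-21 and 22.75 and 24.4 with it. With an offset of 16 its difference was -0.96 and not called, and without a filter it was not called either.

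The comparison at 48 h set arrays with IL-21 against arrays without it, which were also dimmer before scaling. Of the 26 genes, 0 were called in limma, as were 0 of all probe sets (0%), and the lowest adjusted p among the 26 was 0.966. At an unadjusted p under 0.05 there were 3 of 26, Scd2, Ebp and Fasn, against 4.40% of all probe sets. The sterol median was -0.06 (7 higher, 9 lower) and the fatty acid median -0.07 (3 higher, 6 lower), beside -0.01 over all probe sets, of which 48.8% were higher. Both medians were above 0 in the deposited values without scaling (0.52 and 0.50), where the median of all probe sets was 0.57. They were also above 0 without 1 or other of the 48 h IL-21 arrays (up to 0.06 and 0.07). The medians of both lists therefore lay within the spread between arrays of 1 group, which had an SD of 0.11 for the sterol and 0.14 for the fatty acid median.

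The largest differences on the lower side were those of Scd2 (-0.54, SE 0.13, unadjusted p = 0.00682 in limma), Ebp (-0.49, SE 0.18) and Dhcr7 (-0.37, SE 0.21). The other Scd2 probe set gave 0.15, and other probe sets of Scd1 (0.10), Fdps (0.17), Sc5d (0.42), Elovl6 (-0.44) and Acsl4 (0.16) also had the opposite sign to the brightest. Ebp had 107 and 106 without IL-21, 79.8 and 71.5 with it, and 81.0 at 72 h, so the 48 h groups did not overlap and the 72 h value stayed near those with IL-21. On the higher side were Fasn (0.49, SE 0.19), Fdft1 (0.37, SE 0.18) and Hsd17b7 (0.37, SE 0.31), and in these 3 too the groups did not overlap. In the deposited values without scaling, where the median of all probe sets was 0.57, Fasn (1.09) and Fdft1 (0.92) passed, as did 9.34% of all probe sets.

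Groups of 2 did not overlap for 12 of the 26 genes at 48 h, 5 higher and 7 lower, against 33.8% of all probe sets. By branch these were 7 of 16 sterol genes and 4 of 9 fatty acid genes, with Srebf1. Among the sterol genes Mvk (0.34), Msmo1 (0.30), Fdft1 and Hsd17b7 were higher with IL-21, and Fdps (-0.21), Ebp and Dhcr7 lower. Among the fatty acid genes Fasn was higher, and Scd1 (-0.29), Scd2 and Elovl5 (-0.16) lower. Sterol and fatty acid steps thus showed no common direction with IL-21 at 48 h. Of the oxidation genes 12 of 17 were lower with IL-21 by sign (median -0.16), and of the supply and assembly genes 15 of 26 were higher (median 0.02), Agpat1 having -0.74 and Chka -1.44 with none called.

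The 48 h arrays with IL-21 enter both comparisons, with opposite signs, so the differences are not independent of each other. For Scd1 they were -0.29 at 48 h and 1.11 at 72 h, for Fdps -0.21 and 0.59, for Elovl5 -0.16 and 0.68, and for Fasn 0.49 and -0.90. Against both 48 h arrays without IL-21, the 72 h array was higher for Scd1, Fdps and Elovl5 and lower for Fasn.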

How the data were processed

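The arrays were Affymetrix oligonucleotide arrays hybridised with biotin-labelled cRNA. The authors deposited 1 linear intensity per probe set and array, and the submitters' processing notes name MAS5. For MAS5, neither a version nor a scaling target was given in the sources used here. Overall signal differed between columns, so the arrays (12422 probe sets without controls) were quantile-normalised. An offset of 1.53, the 10th percentile of all deposited values, was added before log2, which understates differences of dim genes. Printed signals are without the offset. Probe sets with a mean log2 value above the 40th percentile were tested (7453). limma 3.58.1 in R 4.3.3 fitted 3 group means to all 5 arrays (2 residual degrees of freedom), with a variance trend, two-sided p-values and Benjamini-Hochberg adjustment across the 7453 probe sets. The procedure was tested on simulated data. The number of arrays limits the precision, and intensities carry no counting depth.

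Gene names came from the platform's annotation, updated by Entrez identifier to GRCm38.p6 symbols (10817 of 10833 singly named probe sets matched); probe sets with several names (396) or none (1193) were not used. The members, lists and tests were chosen with earlier results of these data known. Values on every array were given for members called in either comparison, for members with the 3 largest differences per direction and comparison, and for further members by their step. Other probe sets were given where their sign or size differed and for some members besides. From each neighbouring list up to 3 genes per direction were named by smallest p. Alternatives were the scaling, offset, filter, variance trend, gene means, replicate block and each 48 h array left out.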

Additional observations from a re-analysis of the deposited data

How the results depend on the processing

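The count of 6 members called at 72 h depended on the settings. It stayed between 6 and 7 with offsets of 1 or 16 and with a filter at the 60th percentile, where 11.1%, 11.4% and 17.3% of all probe sets were called. It was 1 with arrays centred on their medians (Fasn, lower) and 1 with arrays scaled on hybridisation controls (Scd1), beside 8.71% and 8.82% of all. It was 2 without a filter and 3 with the mean of each gene's probe sets, beside 4.77% and 10.9% of all. Without a variance trend it was 0, as over all probe sets. Most of the 6 calls were lost with any 48 h array omitted, which leaves 1 array in a group. In the deposited values without scaling 5 of 26 were called, beside 28.6% of all probe sets, all 5 lower and none among the 6, and the difference of Elovl5 was -0.012. With the replicate block 12 were called, 10 higher and 2 lower (Idi1 and Fasn), while all calls rose from 823 to 1843. The labels link equal replicate numbers by neither mouse, day nor culture, so this fit shows only the effect of the numbers. At 48 h the replicate block gave 0 members called. The deviations of same-numbered arrays correlated at 0.36 over probe sets.

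The sterol median at 72 h was 0.25 with median centring, -0.17 unscaled, 0.59 with the stricter filter, and from 0.33 to 0.47 with a 48 h array omitted. The fatty acid median was -0.35 with median centring, -0.78 unscaled and from -0.28 to 0.031 with a 48 h array omitted. At 48 h the unscaled values gave 2 of 26 members called, beside 9.34% of all probe sets. The sterol median was then 0.52 and the fatty acid median 0.50, where the median of all probe sets was 0.57. Scaling on hybridisation controls gave list medians of -0.22 and -0.25, where the median of all probe sets was -0.18. Omitting a 48 h array gave a sterol median from -0.12 to 0.059 and a fatty acid median from -0.22 to 0.069. The cause of these shifts was not tested beyond the change of scaling, filter or arrays itself. Without a variance trend 0 of all probe sets were called at 72 h in limma, and 1839 had an unadjusted p under 0.05. Signal over background limits Hsd17b7 and Insig1, which were dim on all arrays.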
